A study of Mus musculus with 25 samples.

Results

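The sinoatrial node (SAN), the pacemaker of the heart, was profiled at embryonic day 12.5 (E12.5) in mouse embryos in which the transcription factor gene Isl1 could be deleted by a tamoxifen-activated Cre recombinase. The set was chosen from the sample labels alone and holds 7 of the 25 libraries of the study. Of these, 4 libraries are labelled CreNeg and 3 CrePos. CrePos replicate 2 carries the word Outlier in its title, so the comparison was made between the 4 CreNeg libraries and CrePos replicates 1 and 3, and CrePos replicate 2 is described apart. All genes were compared, and 14595 of the 20870 genes listed passed the filter on low values, which asked for at least 1 CPM in at least 2 of the 6 libraries. Levels are given in CPM, a read count scaled for depth, here the deposited value divided by 24.3, which is 1 constant for all 25 libraries.

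The embryos behind all 7 libraries carried an Hcn4-GFP reporter and floxed Isl1 alleles (Hcn4-GFP;Isl1 fl/fl) on a mixed background, and all received tamoxifen at E10.5. The CrePos embryos carried in addition the transgene CAG-Cre/Esr1, in which the broadly active CAG promoter drives a Cre recombinase fused to the estrogen receptor. The deletion was therefore not limited by its promoter to the node, and tamoxifen was shared by both groups while the transgene was not, so loss of Isl1 and presence of an activated Cre cannot be told apart by these groups. Nodes were outlined by eye on frozen sections and collected by laser capture, and sections were stained for Hcn4 after capture. Which animals or litters the libraries came from is not given in the labels, so each p-value reflects only library-to-library spread, which may be technical. For comparison, SAN and right atrium (RA) from Hcn4-GFP embryos at E14.5 on a mixed background, 3 libraries each, with no Isl1 allele or tamoxifen in their labels and none of them in the Isl1 set, were used to define genes that are higher in node or in atrium.

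Isl1 is a LIM-homeodomain protein that marks progenitors of the second heart field. Working heart muscle switches it off as it differentiates, while cells of the node keep it. In the node it acts within a group of factors with Shox2, Tbx18 and Tbx3: Tbx3 holds back the genes of working atrial muscle, such as Gja5 and Nppa, and Hcn4 encodes the main channel of the pacemaker current. The comparison addresses which genes of the node change when deletion of Isl1 is induced 2 days before collection.

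The 7 libraries held between 45298052 and 88020475 recovered reads, and the mitochondrial ribosomal RNA mt-Rnr2 took between 21.4% and 34.1% of them. The CPM totals, which the deposited scaling sets, ran from 632387 in CrePos replicate 3 to 890183 in CreNeg replicate 1. A gene without reads could have had up to 3 reads, or 0.0530 CPM in the shallowest library, and such limits cover counting error only. By their Xist and Y-linked transcripts, 2 CreNeg libraries were female and 2 male, the 2 CrePos libraries were 1 of each sex, and CrePos replicate 2 was male. The node's own genes Hcn4, Shox2, Tbx18 and Smoc2 were present in all 4 CreNeg libraries, the lowest of these values being 75.5 CPM for Tbx18. Transcripts of cells that surround or enter the node (mesenchyme, blood, endothelium) were present too, and in captured tissue fewer cells of a type and less RNA per cell cannot be told apart.

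Isl1 itself was at 67.4, 88.5, 47.8 and 83.2 CPM in CreNeg replicates 1 to 4 and at 71.7 and 53.9 CPM in CrePos replicates 1 and 3. The groups overlapped, with a log2 difference of −0.16 ± 0.28 (SE) and an exact two-sided permutation p of 0.667, where the smallest p that 15 assignments allow is 0.0667. The values count reads over the whole gene and do not resolve the floxed exon, so they do not check the deletion in these libraries, and the direction of every difference below rests on the labels. In CrePos replicate 2 Isl1 stood at 2.85 CPM, below all other libraries.

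Esr1, which shares sequence with the receptor part of the transgene, separated the groups as labelled. It was at 8.13, 4.44, 15.9 and 7.28 CPM in the CreNeg libraries, at 68.5 and 70.5 CPM in the CrePos libraries and at 39.0 CPM in CrePos replicate 2. The log2 difference was 2.95 ± 0.40 (SE), with an adjusted p of 0.000979 over all genes and an exact two-sided permutation p of 0.0667, the smallest possible. Reads from the endogenous gene and from the transgene cannot be told apart. Without CrePos replicate 3 the adjusted p was 0.0745.

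**Figure D1:**
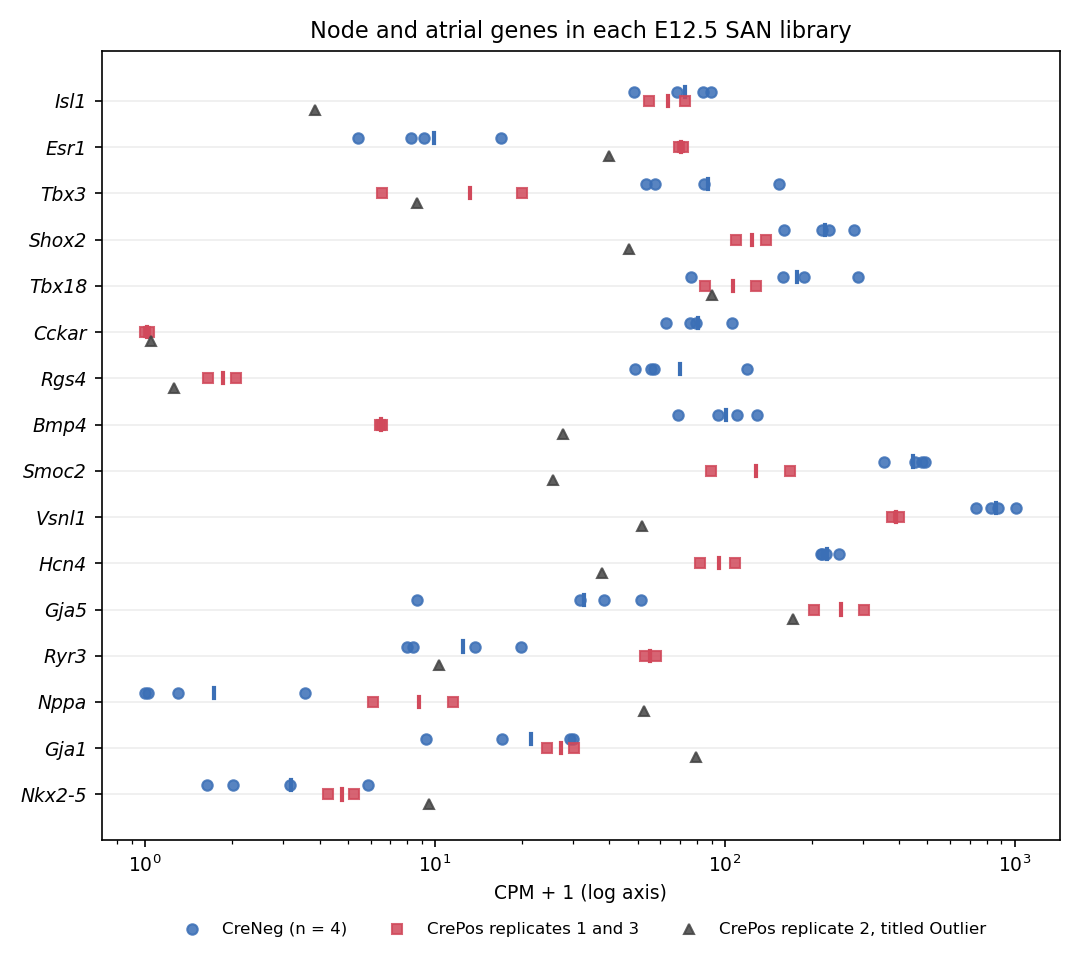
Level of Isl1, Esr1, node genes and atrial genes in each E12.5 SAN library, as CPM + 1 on a log axis. Circles are CreNeg, squares CrePos replicates 1 and 3, triangles CrePos replicate 2, and short bars are group means; Isl1 overlaps between the groups, while Cckar, Rgs4 and Bmp4 lie far lower in CrePos and Gja5 higher.

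Across all genes, 292 of 14595 (2%) were called between CrePos and CreNeg at an adjusted p under 0.05 (limma on log2(CPM + 1), Benjamini-Hochberg). Of these, 99 were higher in CrePos (0.678% of all genes) and 193 were lower (1.32%). The split depended on how libraries were put on 1 scale: the median log2 difference of all genes was −0.42 as deposited and −0.03 after each library was brought to an equal upper quartile of the tested genes. On equal upper quartiles 234 genes (1.6%) were called, 163 higher (1.12%) and 71 lower (0.486%). All 99 genes called higher as deposited were also called higher on that scale, and all 71 called lower on that scale were called lower as deposited. Below, a gene is said to have risen or fallen only where it was called on both scales, which held for 99 genes upward (0.678%) and 71 downward (0.486%), or 1.16% of all genes together. Of the 99, 35 passed the filter on low values only through the CrePos libraries, where they are high, so these had to be higher there, and 64 passed in the CreNeg libraries alone. Some of the 71 passed only with the CreNeg libraries, where they are high, which favoured a fall. How many of the 71 did so was not counted.

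**Figure D2:**
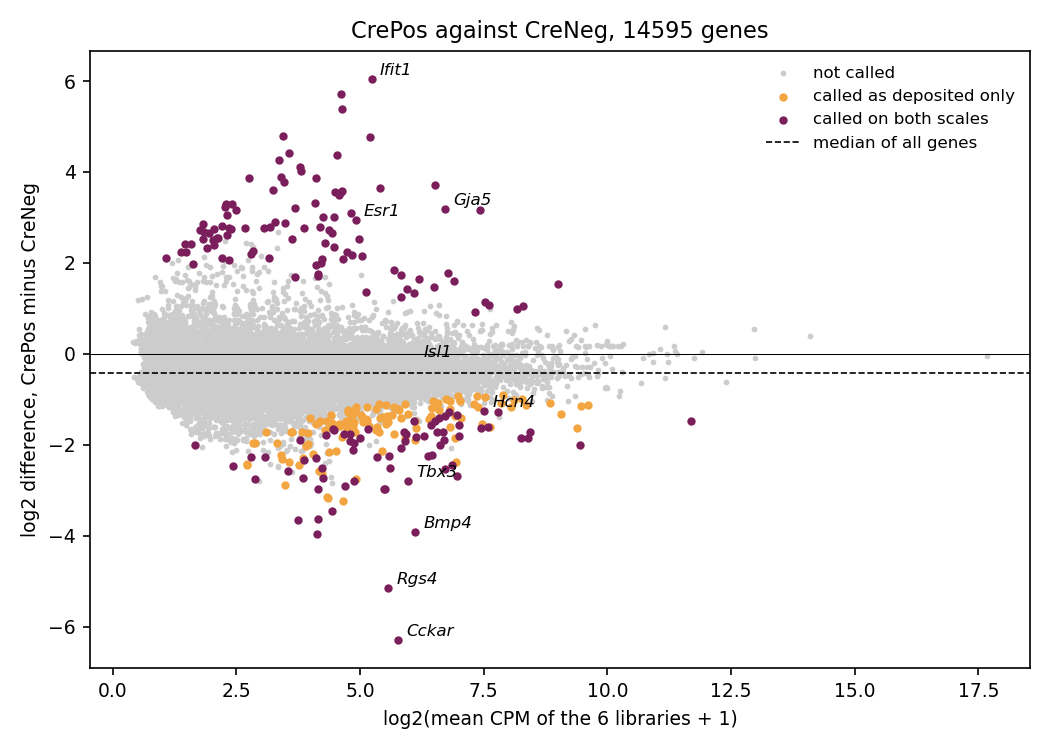
Log2 difference, CrePos minus CreNeg, of 14595 genes against the log2 of their mean CPM over the 6 libraries. Genes called on both scales are dark, those called as deposited only are orange, and the dashed line is the median of all genes at −0.42; 99 genes rose and 71 fell, with Ifit1 and Cckar at the ends.

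The number of calls rested on few libraries. Without CrePos replicate 3 it was 42 (24 higher, 18 lower), and without CrePos replicate 1 it was 266 (27 higher, 239 lower). Leaving out 1 of the CreNeg libraries gave 245 to 364 calls. On the recovered reads, edgeR's quasi-likelihood test called 97 genes higher and 29 lower, and DESeq2 called 358 higher and 303 lower.

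Several genes that mark the node fell in CrePos. Of 14 node marker genes tested, 5 fell, none rose, and the median log2 difference was −0.99 as deposited and −0.58 on equal upper quartiles, beside −0.42 and −0.03 for all genes. The 5 were Cckar, Bmp4, Smoc2, Igfbp5 and Hcn4. Vsnl1, which encodes the calcium sensor visinin-like 1, was called as deposited only, at 735, 875, 1012 and 830.5 CPM in CreNeg and 399.6 and 378 CPM in CrePos. Without CrePos replicate 3, 2 of the 14 were called, and edgeR called 4.

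The largest fall of all genes was that of Cckar, the cholecystokinin A receptor. It was at 78.6, 61.8, 74.6 and 105 CPM in the CreNeg libraries, at 0 in CrePos replicate 1, at 0.0329 CPM in CrePos replicate 3 and at 0.0510 CPM in CrePos replicate 2. All 3 CrePos libraries were near the limit of detection while the lowest CreNeg library was at 61.8 CPM. Cckar, like Rgs4, Csmd1, Chrnb4 and Gabra3 below, passed the filter only with the CreNeg libraries. The adjusted p-values of these genes are thus no independent evidence of a fall. The log2 difference of Cckar on the CPM + 1 scale, which understates the change of a gene near 0, was −6.29 ± 0.33 (SE, adjusted p 5.13e-08). The call held under all 20 alternatives, as it did for Rgs4, Bmp4, Csmd1 and Pdgfra.

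Bmp4, a secreted ligand of the bone morphogenetic protein (BMP) family, was at 68.0, 109, 128 and 93.7 CPM in CreNeg and at 5.54 and 5.48 CPM in CrePos. CrePos replicate 2 was at 26.6 CPM, between the groups. The difference was −3.91 ± 0.29 (SE, adjusted p 2.79e-06). Smoc2, a secreted calcium-binding matrix protein, was at 491, 453, 352 and 478 CPM in CreNeg and 167 and 88.4 CPM in CrePos (log2 difference −1.85 ± 0.26, adjusted p 0.00112). CrePos replicate 2 was at 24.4 CPM, and the groups did not overlap. The adjusted p of Smoc2 was 0.0638 without CrePos replicate 3.

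Among 12 node transcription factors tested, Tbx3 alone fell, with a list median of −0.74 as deposited and −0.32 on equal upper quartiles. Tbx3 was at 52.5, 56.6, 152 and 83.5 CPM in CreNeg, at 19.0 and 5.57 CPM in CrePos and at 7.67 CPM in CrePos replicate 2. Every CrePos library was below every CreNeg library. For CrePos replicates 1 and 3 this held for 27.8% of all genes. The log2 difference of Tbx3 was −2.80 ± 0.44 (SE, adjusted p 0.00273). It was −2.38 on equal upper quartiles, with an adjusted p of 0.0271. The call was lost with edgeR (adjusted p 0.112) and without CrePos replicate 3 (0.192).

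The other factors that work with Isl1 in the node did not pass the test. Shox2, which keeps Nkx2-5 out of the node, was at 159.6, 227, 277 and 216 CPM in CreNeg and 108 and 138 CPM in CrePos, with a log2 difference of −0.82 ± 0.25 (SE) and an adjusted p of 0.103. The CrePos libraries were below all CreNeg libraries, as they were for 27.8% of all genes. Tbx18, which builds the head of the node, was at 288, 186, 75.5 and 158 CPM in CreNeg and 127 and 84.5 CPM in CrePos, which overlap (−0.61 ± 0.38, adjusted p 0.359). Meis2 and Gata6 were called lower as deposited only, with differences of −1.37 and −0.98. None of 8 second heart field progenitor genes was called on either scale (list median −0.91 and −0.64).

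Among 15 pacemaker and calcium channels tested, 2 fell, Hcn4 among them, and none rose (list median −0.63 and −0.26). Hcn4 was at 215, 214, 223 and 247 CPM in CreNeg and at 108 and 81.1 CPM in CrePos, with CrePos replicate 2 at 36.7 CPM. The CreNeg libraries lay close together and above all CrePos libraries. CrePos replicates 1 and 3 were below all CreNeg libraries for 27.8% of all genes. Hcn4 had a log2 difference of −1.25 ± 0.22 (SE, adjusted p 0.00513) as deposited and −0.80 (adjusted p 0.0475) on equal upper quartiles. The call was lost with edgeR (adjusted p 0.112) and without CrePos replicate 3 (0.171).

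No calcium channel gene on this list passed the test. Cacna1d, which encodes the L-type channel of the pacemaker, had a log2 difference of −0.63 (adjusted p 0.179). Cacna1g, the T-type channel gene, was at 36.5, 6.32, 18.01 and 11.7 CPM in CreNeg and 3.46 and 1.96 CPM in CrePos. Its adjusted p was 0.0552, and the CrePos libraries were below all CreNeg libraries, as for 27.8% of all genes. None of 24 potassium channel genes was called as deposited, and Kcnh7 and Abcc8 were called higher on equal upper quartiles only (adjusted p 0.0322 and 0.0278).

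Autonomic nerves set the rate of the node through receptors and G proteins. Of 29 autonomic and cAMP signalling genes tested, Rgs4 and Adora1 fell and none rose (list median −0.41 and 0.04, near that of all genes). Rgs4, which shortens signals through inhibitory G proteins, was at 48.1, 56.1, 54.6 and 118 CPM in CreNeg and at 1.06 and 0.650 CPM in CrePos, with CrePos replicate 2 at 0.255 CPM. That is a log2 difference of −5.15 ± 0.38 (SE, adjusted p 2.79e-06), with every CrePos library far below the lowest CreNeg library. Adora1, the A1 adenosine receptor that slows the node, was at 28.6, 21.9, 28.6 and 31.0 CPM in CreNeg and 8.64 and 7.47 CPM in CrePos (−1.65 ± 0.32, adjusted p 0.0124). It lost the call with edgeR (adjusted p 0.0782) and without CrePos replicate 3 (0.207). Chrm2, the muscarinic receptor through which the vagus nerve acts, was called as deposited only (−2.14 ± 0.41, adjusted p 0.0119 as deposited and 0.0931 on equal upper quartiles).

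The largest falls also included genes that are on no list. Csmd1, a large membrane protein with complement-control domains, was at 21.5, 16.5, 29.7 and 30.1 CPM in CreNeg and 0.848 and 0.354 CPM in CrePos (−3.97 ± 0.41, adjusted p 6.77e-05).

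Chrnb4, a subunit of nicotinic receptors, was at 25.7, 21.6, 3.25 and 23.8 CPM in CreNeg and 0.511 and 0.0329 CPM in CrePos, and Gabra3, a subunit of GABA-A receptors, was at 40.3, 16.9, 11.3 and 30.9 and 1.85 and 0.231 CPM. CreNeg replicate 3 was the lowest CreNeg library for both. Their log2 differences were −3.67 ± 0.64 and −3.63 ± 0.52 (SE), with adjusted p-values of 0.00551 and 0.00129 that rose to 0.0702 and 0.0557 with edgeR and to 0.254 and 0.0844 without CrePos replicate 3. Cadps, a protein of vesicle release, fell by 2.98 on the log2 scale and held with edgeR (adjusted p 0.0499). Lin7a, a scaffold protein, fell by 2.90 and lost its call with edgeR (adjusted p 0.0582).

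Markers of autonomic neurons were measured beside these genes. Of 6 neuron markers tested of 13 listed in the file, Uchl1 fell and none rose. The summed level of the 13 was 107 to 236 CPM in CreNeg, 59.2 and 44.5 CPM in CrePos and 56.4 CPM in CrePos replicate 2. The 13 include Hand2, which is also on the list of node transcription factors, so the sum is not of neuron markers alone. The defining markers Phox2a, Prph and Stmn2 did not pass the filter. Th, the first enzyme of catecholamine synthesis, was at 22.3, 5.60, 1.13 and 11.6 CPM in CreNeg and 0.317 and 0 CPM in CrePos, with an adjusted p of 0.0595. The part of neurons in the falls above was not tested.

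Some genes that working atrial muscle uses and the node keeps low rose. Of 13 working atrial genes tested, 3 rose, Gja5 and Nppa among them, and none fell (list median 0.60 and 1.05, beside −0.42 and −0.03 for all genes). Gja5, the fast-conducting gap junction protein connexin 40, was at 50.6, 37.3, 7.69 and 30.7 CPM in CreNeg, at 202 and 301 CPM in CrePos and at 171 CPM in CrePos replicate 2. All 3 CrePos libraries were above all CreNeg libraries, and the log2 difference was 3.19 ± 0.50 (SE, adjusted p 0.00257, with edgeR 0.0254).

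Nppa, the atrial natriuretic peptide, stayed low in absolute terms, at 0, 2.57, 0.300 and 0.0263 CPM in CreNeg and 5.09 and 10.6 CPM in CrePos. It passed the filter on low values only with the CrePos libraries and so had to be higher there. The adjusted p of Nppa is thus no independent evidence of a rise. Its call (adjusted p 0.0360) was lost under 8 alternatives, with edgeR at 0.378. Without CrePos replicate 3 none of the 13 genes was called (adjusted p 0.202 for Gja5 and 0.797 for Nppa).

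Gja1, connexin 43, and Nkx2-5, the cardiac homeobox factor, did not pass the test. Gja1 was at 28.8, 15.97, 8.33 and 28.3 CPM in CreNeg and 29.2 and 23.4 CPM in CrePos, and Nkx2-5 at 0.641, 2.17, 4.90 and 1.01 and 3.27 and 4.25 CPM, with adjusted p-values of 0.500 and 0.426. The groups overlapped for both genes. Myl2, a ventricular marker, was low in the 6 libraries compared. It was at 0.247 to 6.398 CPM in CreNeg and 5.20 and 3.40 CPM in CrePos.

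Few genes of calcium handling and the sarcomere changed. Of 22 calcium handling genes, Ryr3 and Casq1 rose and none fell (list median −0.20 and 0.25). Ryr3, a calcium release channel, was at 12.7, 7.41, 18.8 and 6.98 CPM in CreNeg and 51.9 and 56.7 CPM in CrePos (2.25 ± 0.39, adjusted p 0.00483). Casq1, a calcium store protein, was at 27.4, 27.5, 61.2 and 58.1 CPM in CreNeg and 142 and 116 CPM in CrePos (1.63 ± 0.34, adjusted p 0.0186). CrePos replicate 2 did not share either rise, with Ryr3 at 9.34 CPM and Casq1 at 39.0 CPM. Both calls were lost without CrePos replicate 1 or 3.

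Pln, phospholamban, which restrains the calcium pump, was called lower as deposited only (−1.86 ± 0.30, adjusted p 0.00325, and 0.0551 on equal upper quartiles). Of 23 sarcomere genes, Myl3 rose (list median 0.21 and 0.62). Myl3 was at 30.1, 41.8, 24.0 and 63.3 CPM in CreNeg and 121 and 85.4 CPM in CrePos, with an adjusted p of 0.0397, and the call was lost under 9 of 20 alternatives. The summed level of the 23 genes was 34743 to 45061 CPM in CreNeg and 54368 and 43346 CPM in CrePos.

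Few members of the signalling lists were called on both scales. Of 19 BMP and TGF-beta genes tested, Bmp4 and Id3 fell and none rose (list median −0.95 and −0.59). Id3, a transcription inhibitor that BMP signals induce, was at 112, 55.7, 64.2 and 72.1 CPM in CreNeg and 31.6 and 14.6 CPM in CrePos (−1.72 ± 0.33, adjusted p 0.0128). The related Id2 was called as deposited only (−1.44, adjusted p 0.0373). Without CrePos replicate 3 the adjusted p of Id3 was 0.496.

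Of 21 Wnt genes tested, Wnt5a and Sfrp2 fell and Dkk3 rose, and the median was the lowest among the lists with at least 5 tested genes (−1.19 and −0.74). Wnt5a, a ligand of the non-canonical branch, was at 119, 92.9, 96.1 and 131 CPM in CreNeg and 37.8 and 34.2 CPM in CrePos (−1.57 ± 0.24, adjusted p 0.00238). Sfrp2, a secreted antagonist, had a difference of −1.83 ± 0.31 (adjusted p 0.00403). Wnt5a lost its call with edgeR (adjusted p 0.0525) and without CrePos replicate 3 (0.0711), and Sfrp2 with edgeR (0.112) and without CrePos replicate 1 (0.0559) or 3 (0.0625). Dkk3, another secreted protein of the Dickkopf family, was at 88.4, 67.3, 40.8 and 49.3 CPM in CreNeg, 211 and 196 CPM in CrePos and 40.3 CPM in CrePos replicate 2, which did not share the rise, and its adjusted p was 0.0967 without CrePos replicate 3. Fzd1, Fzd7 and Axin2 were called lower as deposited only. No Notch gene of 15 was called on either scale. Of 23 axon guidance genes, Epha4, a receptor of the ephrin family, rose by 1.24 on the log2 scale (adjusted p 0.0345). That call was lost under 6 of 20 alternatives, among them without CrePos replicate 1 (0.0987) or 3 (0.335), and CrePos replicate 2 was at 20.47 CPM, below every CreNeg library. The genes Sema3c, Robo1, Epha7 and Ncam1 were called lower as deposited only.

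**Figure D3:**
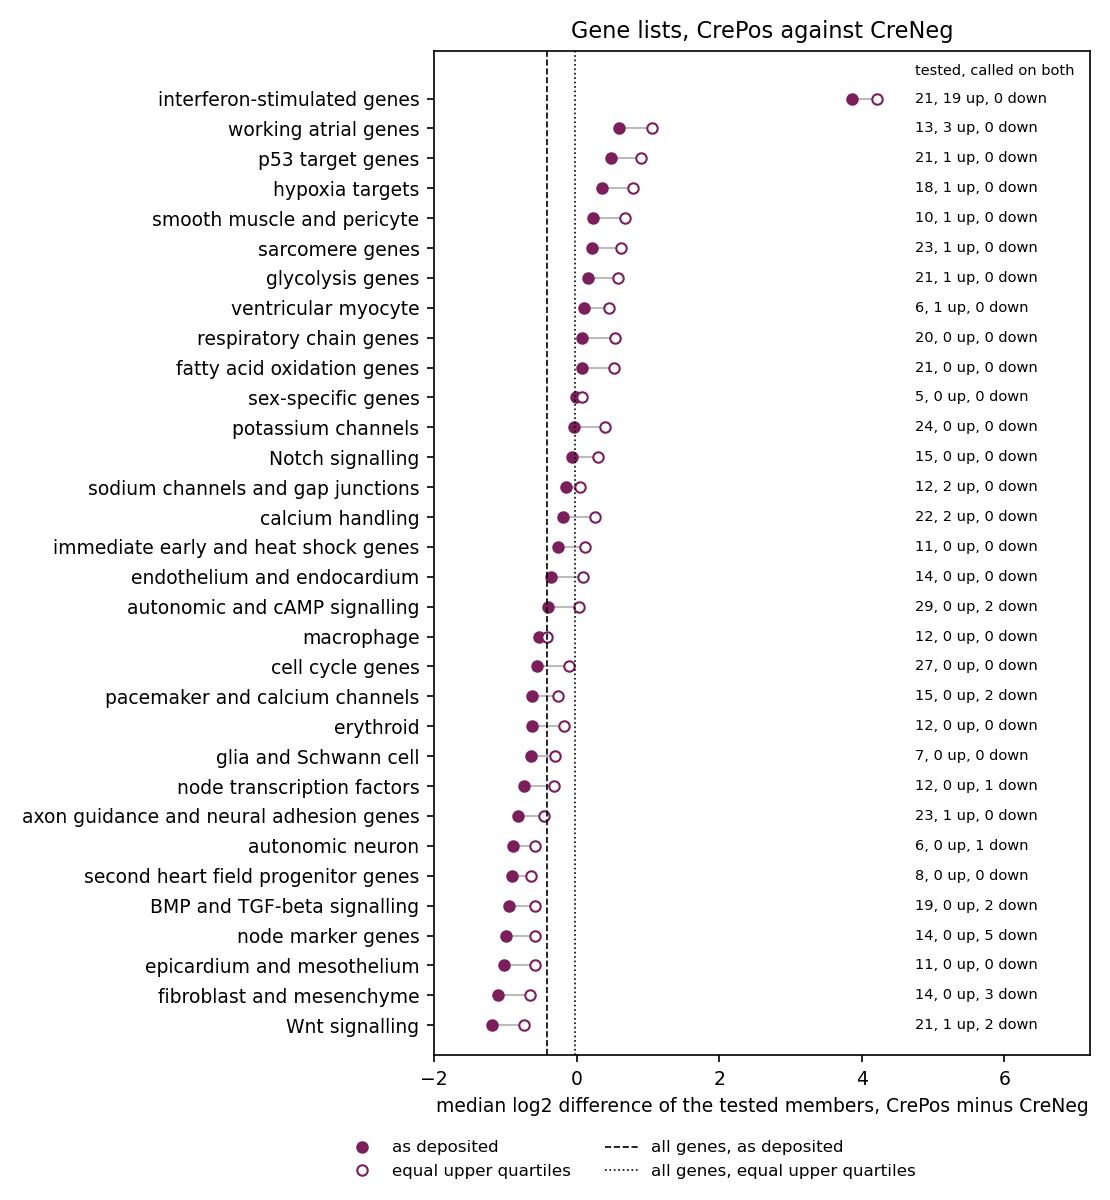
Median log2 difference, CrePos minus CreNeg, of each gene list with at least 5 tested members, as deposited (filled) and on equal upper quartiles (open), beside the medians of all genes (dashed and dotted lines). The numbers give the members tested and those called higher and lower on both scales. The interferon-stimulated genes stand at 3.87 with 19 of 21 called higher, where 10 of the 21 passed the filter only with the CrePos libraries. The lists were set with earlier results of these data known.

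Interferon-stimulated genes made up part of the genes that rose. Interferons are signals that cells release on sensing foreign nucleic acid. Factors downstream of their receptors bind interferon response elements near target genes and switch on antiviral proteins. Of 25 such genes listed, 24 were in the file and 21 passed the filter. Among the 21, 19 rose and none fell, beside 0.678% and 0.486% of all genes. The list was set with earlier results of these data known, so its counts and levels are a description only. Of the 21, 10 passed the filter only with the CrePos libraries and so had to be higher there. Of the other 11, which had at least 1 CPM in at least 2 CreNeg libraries, 9 rose. Among all 14129 genes that passed in this way, 64 rose. Of the 99 genes that rose, 19 were on this list.

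Ifit1, which binds RNA lacking the cap of the cell's own transcripts, was at 3.29, 0.249, 0 and 0.0616 CPM in CreNeg and 147 and 69.6 CPM in CrePos (6.05 ± 0.59, adjusted p 3.84e-05). On the log2(CPM + 1) scale this was the largest difference upward, which is not so with edgeR. Ifit1, and Isg15 and Usp18 below, are among the 10 members that passed the filter only with the CrePos libraries, so their adjusted p-values are no independent evidence of a rise.

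Isg15, a ubiquitin-like protein, was at 0, 0.343, 0.0177 and 0.0707 CPM in CreNeg and 25.0 and 34.2 CPM in CrePos (4.78 ± 0.46, adjusted p 3.84e-05). Usp18, the protease that removes it, was at 0.756, 0, 0.990 and 1.16 CPM in CreNeg and 87.5 and 52.4 CPM in CrePos (5.37 ± 0.48, adjusted p 1.80e-05). Bst2, which tethers budding viruses, was at 2.91, 3.17, 1.22 and 1.44 CPM in CreNeg and 55.1 and 34.5 CPM in CrePos (3.87 ± 0.45, adjusted p 0.000260). CreNeg libraries were at or near 0 for Isg15 and Usp18, and all CrePos libraries were above them.

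Sensors of viral RNA rose too. Ifih1 was at 1.15, 0.0156, 4.31 and 0.150 CPM in CreNeg and 51.2 and 19.9 CPM in CrePos, and Ddx58 was at 11.4, 7.38, 3.84 and 6.22 CPM in CreNeg and 84.1 and 50.2 CPM in CrePos (adjusted p 0.000670). Rsad2, an antiviral enzyme, was at 12.03, 2.35, 0.265 and 1.03 CPM in CreNeg and 148 and 52.2 CPM in CrePos, and CreNeg replicate 1 was the highest CreNeg library for it. With edgeR the adjusted p was 0.140 for Ifih1 and 0.0607 for Rsad2, and both calls were also lost without CrePos replicate 1 (0.0585 and 0.0574). Cxcl10, a chemokine, had no reads in the 4 CreNeg libraries and stood at 48.9 and 1.98 CPM in the CrePos libraries, a mean at least 480-fold higher than the limit of 0.0530 CPM for 3 reads per library. CrePos replicate 2 held 0.183 CPM of Cxcl10. The Ifit, Oas and Mx families have close paralogs that share reads, so single members of these families are uncertain.

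The 11 members that passed the filter in the CreNeg libraries alone had a median log2 difference of 3.71 as deposited and 4.15 on equal upper quartiles, beside −0.44 and −0.04 for the 14129 genes that passed in this way. Over all 21, a median that draws on the 10 members that had to be higher, it was 3.87 (3.88 with Cxcl10 at its lower bound) and 4.21. edgeR called 14 of the 21, DESeq2 17, and 8 of 24 were called with no filter on low values. With CrePos replicate 1 left out 8 of 15 tested were called, and with CrePos replicate 3 left out 12 of 15. The summed level of the list was 42.4 to 90.3 CPM in CreNeg, 1541 and 786 CPM in CrePos replicates 1 and 3, and 828 CPM in CrePos replicate 2, where all 21 tested members were above every CreNeg library, as 8.26% of all genes were. None of 12 macrophage markers tested was called. The summed level of the 13 macrophage markers in the file was 46.3 to 83.6 CPM in CreNeg and 90.9 and 8.77 CPM in CrePos.

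**Figure D4:**
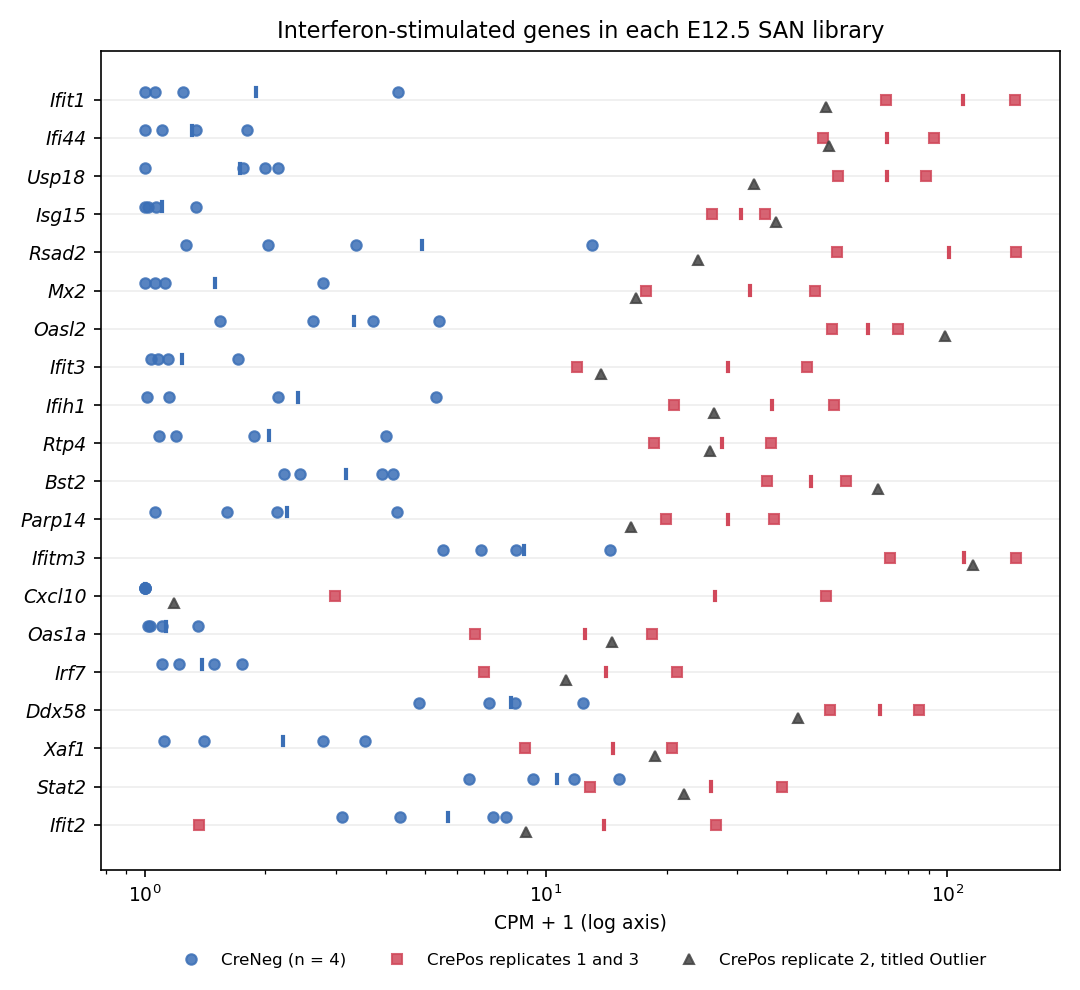
Level of tested interferon-stimulated genes in each E12.5 SAN library, as CPM + 1 on a log axis; circles are CreNeg, squares CrePos replicates 1 and 3, triangles CrePos replicate 2, and bars group means. The squares lie to the right of every circle for all genes shown except Stat2 and Ifit2, which were not called.

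The promoters of several of these genes hold the letters that the interferon factors bind, and 5 are shown as examples, picked after their values were seen. Their genes rose and their matches lie clear of the start, which also holds for Cxcl10, not shown. Promoters were taken from RefSeq (build GRCm38.p6, 250 bases before to 50 after the start of each gene, while the submitters' build for the values was mm8) and searched on both strands for the core of the interferon response element, which is GAAA, any 2 bases and GAAA again. Each window below ends upstream of the gene's start and is written 5′ to 3′ along the gene's strand, with the matching letters in capitals, which read TTTC, 2 bases and TTTC where the match is on the other strand.
Ifit1, chr19:34640745-34640853, plus strand: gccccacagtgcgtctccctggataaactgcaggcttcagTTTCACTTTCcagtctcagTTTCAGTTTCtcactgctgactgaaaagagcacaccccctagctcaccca
Ifit3, chr19:34583333-34583456, plus strand: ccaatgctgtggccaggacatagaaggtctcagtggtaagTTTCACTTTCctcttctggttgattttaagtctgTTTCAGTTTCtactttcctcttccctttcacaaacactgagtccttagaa
Isg15, chr4:156200835-156200936, minus strand: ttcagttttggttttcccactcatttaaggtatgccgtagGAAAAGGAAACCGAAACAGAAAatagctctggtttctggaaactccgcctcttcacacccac
Rsad2, chr12:26456523-26456612, minus strand: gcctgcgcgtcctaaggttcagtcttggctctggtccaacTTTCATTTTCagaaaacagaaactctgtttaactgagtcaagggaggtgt
Bst2, chr8:71537547-71537642, minus strand: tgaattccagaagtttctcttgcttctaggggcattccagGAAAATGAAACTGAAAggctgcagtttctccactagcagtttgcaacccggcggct

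Matches in Isg15 and Bst2 overlap each other, so that 3 and 2 matches make 1 run of capitals. Of the 19 interferon-stimulated genes that rose, 14 had a promoter in the table and 10 of these held a match, against 3.99% of the promoters of all 27025 genes in the table. Of the other 80 genes that rose, 54 had a promoter and 20 held a match. The 20 include genes that interferon is known to induce but that are not on the list, such as B2m, Irgm1 and Ddx60. The motif was chosen after the rise was seen, and 72.4% of the tested genes had a promoter in the table, so the shares are a description only. The letters of the known Isl1 motif, CTAATGG or CTAATTG, were in 4.56% of all promoters and in 3.56% of those of the tested genes. They were in 4 of the 139 promoters found for the 193 genes called lower as deposited (2.88%). None of the 52 promoters found for the 71 genes that fell held them, which says only that these letters are not in these windows.

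Of 21 p53 target genes tested, Cdkn1a rose (list median 0.48 and 0.91). In 8 of the 21 both CrePos libraries were above all CreNeg libraries, beside 2.91% of all genes, and in CrePos replicate 2 14 were, beside 8.26%. Cdkn1a, the cell cycle inhibitor p21, was at 2.73, 1.51, 3.27 and 3.16 CPM in CreNeg, at 25.5 and 25.3 CPM in CrePos and at 95.3 CPM in CrePos replicate 2. The groups were far apart, with a log2 difference of 2.88 ± 0.43 (SE, adjusted p 0.00195, with edgeR 0.00261). Zmat3, Perp and Ccng1 were called higher on equal upper quartiles only (Zmat3 adjusted p 0.00707), and without CrePos replicate 3 the adjusted p of Cdkn1a was 0.0949.

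None of 27 cell cycle genes was called on both scales (list median −0.56 and −0.11), and Mki67, a proliferation marker, was called lower as deposited only (−0.997, adjusted p 0.0477). Slc2a1, the glucose transporter, rose among 18 hypoxia targets and 21 glycolysis genes, at 127, 92.1, 123 and 192 CPM in CreNeg and 286 and 282 CPM in CrePos (1.13 ± 0.26, adjusted p 0.0361). Its call was lost under 8 of 20 alternatives. None of 21 fatty acid oxidation genes and none of 20 respiratory chain genes was called on both scales (list medians 0.07 and 0.08 as deposited, 0.52 and 0.53 on equal upper quartiles), and none of 11 immediate early and heat shock genes.

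Some markers of mesenchyme fell in CrePos. Of 14 fibroblast and mesenchyme genes, Pdgfra, Col1a2 and Prrx1 fell and none rose (list median −1.11 and −0.66). Pdgfra, the growth factor receptor of cardiac mesenchyme, was at 116, 137, 145 and 145 CPM in CreNeg, 46.1 and 27.0 CPM in CrePos and 42.3 CPM in CrePos replicate 2, with a difference of −1.91 ± 0.25 (SE, adjusted p 0.000771). Col1a2, a collagen chain, was at 1313, 516, 1151 and 731 CPM in CreNeg and 278 and 168 CPM in CrePos, but at 933 CPM in CrePos replicate 2, within the CreNeg range. Col1a2 and Prrx1 lost their calls with edgeR (adjusted p 0.0607 and 0.0525), without CrePos replicate 3 (0.274 and 0.337) and with CrePos replicate 2 included (0.139 and 0.0716). Col1a1 and Col3a1 were called as deposited only. The summed level of the list was 3081 to 5717 CPM in CreNeg and 2178 and 1417 CPM in CrePos. In CrePos replicates 1 and 3 the sum was thus below every CreNeg library, as Bmp4, Wnt5a and Sfrp2 were. In CrePos replicate 2 the sum was 4425 CPM, within the CreNeg range. Bmp4, Wnt5a and Sfrp2 were below every CreNeg library there too, at 26.6, 31.5 and 46.7 CPM, as 41.6% of all genes were. The part of mesenchyme in the falls of these genes was not tested.

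The lists of other cell types held few called genes. No marker of endothelium (14 tested), epicardium (11), macrophages (12) or erythroid cells (12) was called on either scale. Of 10 smooth muscle and pericyte markers, Myh11, smooth muscle myosin, rose, from 5.77, 8.45, 11.6 and 6.73 CPM in CreNeg to 32.2 and 42.0 CPM in CrePos (2.09 ± 0.37, adjusted p 0.00644), and CrePos replicate 2 was at 6.41 CPM. The adjusted p of Myh11 was 0.314 without CrePos replicate 3. Tnnt3, a troponin of fast skeletal muscle, rose by 2.11 (adjusted p 0.0434, lost under 10 of 20 alternatives), and Myog and Myh3, which define skeletal muscle, did not pass the filter. Sox9 of the cartilage list was called lower as deposited only.

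The E14.5 libraries gave a second view of node and atrial genes. They differ from the E12.5 libraries in what they list, with mt-Rnr2 at 0 in all 6, so they were fitted apart from the Isl1 set. The E14.5 difference was taken from a fit of 18 libraries, SAN and RA at E14.5 and at postnatal days 4 and 14. The spread in its test thus drew on the postnatal libraries too. Genes tested had at least 1 CPM in at least 3 of the 18. Between SAN and RA at E14.5, 936 of 17568 genes (5.33%) were called, 393 higher in SAN (2.24%) and 543 lower (3.09%). Of the 393 node genes, 372 were tested in the Isl1 set: 68 of them (18.3%) were called lower in CrePos as deposited and 1, Kcnip1, higher, beside 1.32% and 0.678% of all genes. On equal upper quartiles 39 (10.5%) were lower and 4 (1.08%) higher, beside 0.486% and 1.12% of all genes. The share called higher was thus near that of all genes. The 68 include Pdgfra and Prrx1 of the mesenchyme list, Uchl1 of the neuron list and Egfr of the glia list, so they are genes higher in captured SAN than in RA and not node muscle genes alone. These genes made up 35.2% of all lower calls as deposited and 54.9% on equal upper quartiles. Cckar, Rgs4, Csmd1, Chrnb4 and Gabra3 among the 68 passed the filter only with the CreNeg libraries, which favoured a fall. How many others of the 68 did so was not counted, so these shares draw in part on such members.

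The median log2 difference of the 372 node genes was −0.80 as deposited and −0.39 on equal upper quartiles, beside −0.42 and −0.03 for the 14445 genes tested in both fits. Of the 543 atrial genes, 463 were tested: 27 (5.83%) were higher in CrePos, which is 27.3% of all higher calls, and Alcam and Bgn were lower. On equal upper quartiles 37 (7.99%) were higher and none lower, beside 1.12% and 0.486% of all genes. Among the 27, 7 were on the interferon list (among them Ifih1, Ddx58, Oasl2, Ifitm3, Xaf1 and Rtp4), which were thus also higher in RA than in SAN at E14.5. Other genes that interferon is known to induce, such as Oas2, Gbp9, Ifi203 and Ddx60, are among the 27 but not on the list. The 7 therefore do not cover all interferon genes among the 27. Nppa and Rtp4 among the 27 passed the filter only with the CrePos libraries and so had to be higher there. How many others of the 27 did so was not counted. The atrial genes had a median log2 difference of 0.02 as deposited and 0.38 on equal upper quartiles.

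Leaving out CrePos replicate 3 left 15 of the node genes called lower and 8 of the atrial genes called higher. Without CrePos replicate 1 the numbers were 65 and 9, and with edgeR 21 and 23. Of the genes described above, Cckar, Rgs4, Tbx3, Smoc2, Hcn4 and Bmp4 were higher in SAN than RA at E14.5 and fell in CrePos, while Isl1 and Shox2 were higher in SAN and did not pass the test in CrePos. Nppa was higher in RA and rose in CrePos, but it passed the filter there only with the CrePos libraries. Gja5 rose in CrePos without passing the test at E14.5 (adjusted p 0.0502). Among atrial genes, Tmem163, a zinc transporter, was at 2.20, 5.58, 2.30 and 3.17 CPM in CreNeg and 32.9 and 49.5 CPM in CrePos (3.33 ± 0.44, adjusted p 0.000670).

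**Figure D5:**
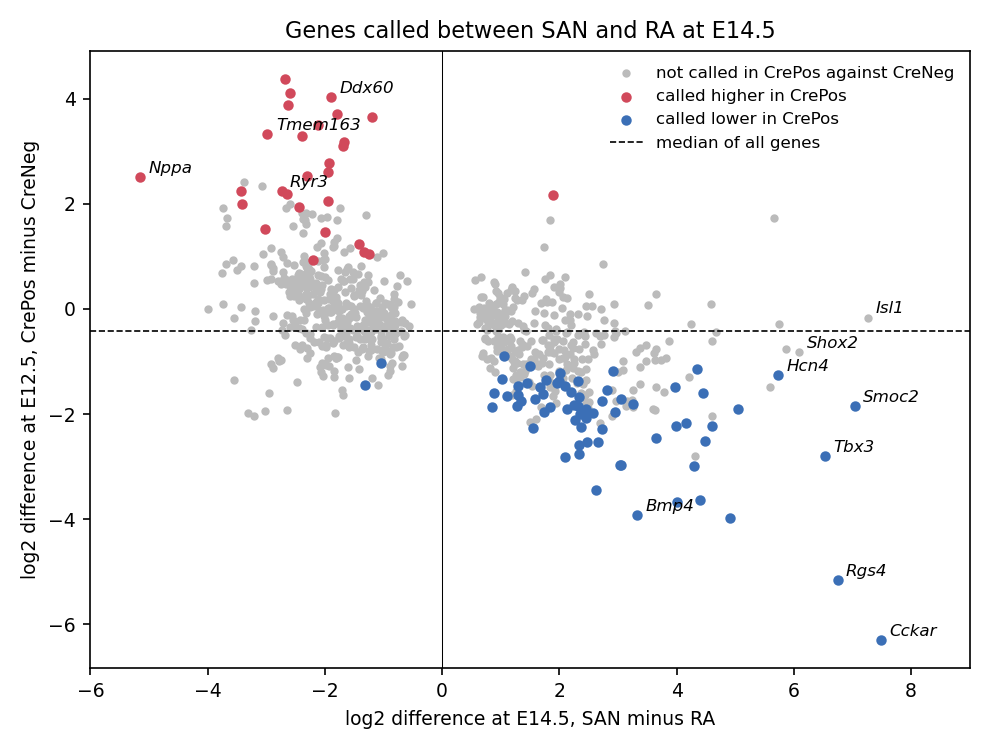
Log2 difference between CrePos and CreNeg at E12.5 (vertical) against that between SAN and RA at E14.5 (horizontal) for genes called at E14.5. Blue genes were called lower and red genes higher in CrePos as deposited, and the dashed line is the median of all genes at −0.42. There are 68 blue genes among those higher in SAN and 27 red genes among those higher in RA. Some blue genes, such as Cckar, passed the filter only with the CreNeg libraries, and some red genes, such as Nppa, only with the CrePos libraries.

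The library titled Outlier, CrePos replicate 2, was set beside the called genes as a description. Of the 99 genes that rose, 81 were above every CreNeg library in it (51 of the 64 that passed the filter in CreNeg alone), and of the 71 that fell, 64 were below. Over all genes the shares were 8.26% and 41.6%, but the 99 and 71 were chosen against the same 4 CreNeg libraries, so these counts are no independent check of the calls. With this library included, 85 genes were called higher and 176 lower. It was lower than the other CrePos libraries for much of the node list: the summed node marker level was 6124 to 8239.9 CPM in CreNeg, 3369 and 2500.4 CPM in CrePos and 821 CPM in CrePos replicate 2.

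Markers of other cells differed in this library. Myl2, the regulatory light chain of ventricular muscle, reached 1032 CPM in CrePos replicate 2 and did not exceed 6.398 CPM in any of the 6 libraries compared, and Myl3 was at 776 CPM. Nppb, a natriuretic peptide, was at 93.8 CPM. Erythroid genes were low, at a sum of 947 CPM against 6037 to 20338 CPM in CreNeg and 4423 and 8905 CPM in CrePos, with 11 of 12 below every CreNeg library. In all, 8 genes were at least 4-fold above and 14 at least 4-fold below all 6 other libraries in CPM + 1. Isl1, Vsnl1 and Cacna2d2 were among the 14, at 2.85, 50.7 and 101.2 CPM. The part of neighbouring muscle and of blood in the values of this library was not tested, and there is no replicate of it.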

How the data were processed

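RNA of laser-captured nodes was amplified and sequenced, and the labels' protocols name PicoPure, Ovation V2 and Ovation Ultralow DR kits. TopHat2 2.0.6, edgeR and build mm8 are named per the submitters' processing notes. The deposited signal is a gene count divided by a library factor, from which whole reads were recovered by step size (at least 99.99% of values came out within 0.1 read of a whole number in each of the 7 libraries). The main test was limma 3.58.1 on log2(CPM + 1) with a trend and Benjamini-Hochberg adjustment over all tested genes. edgeR 4.0.16 and DESeq2 1.42.0 on the recovered reads were alternatives. Before use, limma and edgeR, but not DESeq2, were run on simulated counts. Those had the same spread for all genes, and the CPM made from them for limma had equal library totals. Both are unlike the libraries here, so that run does not check the calls above. Same-numbered libraries did not deviate together (correlations −0.0015 and −0.0037), so no pairing was used. The members and lists were chosen with earlier results of these data known. Named genes were taken by a fixed rule from the lists and the largest called differences, and genes outside it were chosen after their values were seen. The promoter motif for interferon factors was also chosen after seeing the data. Results for some genes are not reported here.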

Additional observations from a re-analysis of the deposited data

Results flagged for a closer look

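Among 158 named genes, 14 had 1 CreNeg library far from the other 3, with a gap that took more of the group's range than Dixon's 95% critical value for 4 samples, where chance gives about 1 in 20. The gap was 0.883 for Nppa, 0.924 for Ifit1, 0.930 for Mx2, 0.843 for Ifit3, 0.886 for Rgs4, 0.957 for Meis2 and 0.996 for Aldh1a2. It was 1 for Nppb, 0.8293 for Epha7, 0.868 for Eda2r, 0.842 for Elavl4, 0.842 for Bnc1, 0.925 for Epb4.2 and 0.945 for Col2a1. Nppb was at 0.0353 CPM in CreNeg replicate 3, under the limit of 0.0530 CPM for 3 reads, and at 0 in the other CreNeg libraries. Its gap of 1 follows from those zeros and marks no distant library.

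CrePos replicate 2, which entered no main comparison, held Myl2 at 1032 CPM and Myl3 at 776 CPM, above every CreNeg library.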

How the results depend on the processing

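The count of called genes, 292 as deposited, was 126 with edgeR, 661 with DESeq2, 39 with no filter on low values and 980 with a replicate block, where the shared numbers do not pair the libraries. Genes called higher, 99 as deposited, were 358 with DESeq2, 20 with no filter and 163 on equal upper quartiles. Genes called lower, 193 as deposited, were 29 with edgeR, 303 with DESeq2, 120 with a pseudocount of 5, 19 with no filter, 300 with a filter of 5 CPM, 71 on equal upper quartiles, 112 on equal totals without mitochondrial genes, 110 also without interferon genes, 346 on an equal sarcomere gene mean and 858 with the replicate block. Of the genes higher in SAN at E14.5, 68 were called lower as deposited, 21 with edgeR, 17 with no filter and 39 on equal upper quartiles. Of those lower in SAN, 27 were called higher as deposited, 51 with DESeq2 and 5 with no filter. Esr1 kept its log2 difference of 2.95 with no filter but not its call (adjusted p 0.072). Leaving out 1 library at a time gave 42 to 364 calls, 24 to 111 higher and 18 to 253 lower, log2 differences of 2.70 to 3.24 for Esr1 and −0.37 to 0.04 for Isl1, 15 to 90 lower calls among SAN genes, 8 to 35 higher calls among RA genes, and 271 to 336 and 263 to 558 genes called higher and lower in SAN at E14.5. The cause of these changes was not tested. With 2 CrePos libraries, leaving out 1 leaves a lone library assumed to vary like the CreNeg group.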

Other observations

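Other genes that interferon is known to induce, outside the list and picked after their values were seen, also rose. Irgm1, an immunity GTPase, was at 6.87, 7.10, 6.05 and 2.65 CPM in CreNeg and 69.4 and 35.8 CPM in CrePos (3.00 ± 0.43, adjusted p 0.00138). B2m, the light chain of class I antigen presentation, was at 84.6, 61.2, 49.0 and 56.8 CPM in CreNeg and 364 and 97.5 CPM in CrePos (1.60 ± 0.39, adjusted p 0.0437).

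Further genes that fell were picked in the same way. Etv1, a transcription factor of fast-conducting atrial muscle, was at 161, 167, 125 and 178 CPM in CreNeg and 22.5 and 34.7 CPM in CrePos (−2.44 ± 0.25, adjusted p 6.77e-05). Unc5c, a netrin receptor, was at 184, 147, 121 and 126 CPM in CreNeg and 29.5 and 19.1 CPM in CrePos (−2.53 ± 0.26, adjusted p 6.77e-05). CrePos replicate 2 was below all CreNeg libraries for both, at 5.87 and 55.3 CPM, as it was for 41.6% of all genes. Mest, an imprinted gene of growing tissue, rose from 356, 345, 266 and 292 CPM in CreNeg to 753 and 1081 CPM in CrePos (1.53 ± 0.23, adjusted p 0.00192).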
